A study of Mus musculus with 31 samples.

Results

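The clustered histone genes were followed in eyes of Ftx-deficient and wild-type (WT) mouse embryos. Every non-control probe of the array whose gene name begins with Hist1h, Hist2h, Hist3h or Hist4h was taken, whatever its signal, which gave 56 of 55681 probes and 49 of 34832 gene names. RNA came from single E13.5 eyes of normal appearance, dissected free of their pigmented epithelium, and was measured on 1-colour (Cy3) Agilent arrays. Ftx-/- females gave 11 eyes, with 2 arrays for each eye. The other groups had 1 array for each eye. They held 3 eyes of WT females (numbered 1, 2 and 4), 3 of Ftx-/Y males and 3 of WT males. These are counts of eyes, and the number of embryos is not known. The targeted allele, which all cells of the embryo carry, is a deletion of Ftx, a non-coding gene of the X-inactivation centre, and the Ftx-deficient line was kept on a pure C57BL/6N background. The paper states that this allele also lacks the expression of 2 microRNAs from an Ftx intron. The labels give no litter or embryo for any eye, so p-values here measure only the spread between eyes.

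Histones are the proteins around which DNA is wrapped. A nucleosome holds a core of H2A, H2B, H3 and H4, and the linker histone H1 sits where the DNA enters and leaves it. The genes studied here lie in dense clusters, are made in large amount during S phase, and give short messages that end in a conserved stem-loop instead of a poly(A) tail. The stem-loop is bound by SLBP and trimmed with the help of the U7 particle, and the messages are degraded when DNA synthesis stops. Many other histone genes (H1f0, H2afz, H3f3a, H3f3b) lie alone in the genome, have polyadenylated messages and are made throughout the cell cycle. The labelling kit primes at poly(A), so the signal of a clustered histone gene depends on messages that carry A stretches or are primed otherwise. How far each gene's signal follows its amount of stem-loop message was not measured.

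The members fell into 6 H1, 14 H2A, 12 H2B, 8 H3 and 9 H4 genes. By position, 36 gene names belong to the Hist1 cluster (mm9 chromosome 13), 9 to Hist2 (chromosome 3), 3 to Hist3 (chromosome 11) and 1 to Hist4 (chromosome 6). The probe positions are those of the files. The files place no position beside the probe of Hist2h3c2 and 1 of the 3 probes of Hist1h4i.

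Member genes are close copies of each other, and several probes share long runs of letters with another member's probe. The following 3 pairs are shown because their values below can rest on shared message. Capitals mark the run that both probes of a pair have in common, and each sequence reads 5′ to 3′ on the strand of its gene. The first pair runs from just before the start codon into the H3 coding sequence and shares 36 bases.
Hist1h3c, chr13:23837328-23837387, minus strand (mm9): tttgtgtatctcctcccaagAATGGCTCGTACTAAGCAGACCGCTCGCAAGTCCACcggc
Hist1h3f, chr13:23636330-23636389, plus strand (mm9): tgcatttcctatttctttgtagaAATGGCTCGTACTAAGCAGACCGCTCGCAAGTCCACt
The second pair lies in the H4 coding sequence and shares 26 bases.
Hist1h4j, chr13:21826989-21827048, plus strand (mm9): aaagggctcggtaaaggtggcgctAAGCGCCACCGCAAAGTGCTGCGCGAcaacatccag
Hist1h4k, chr13:21842279-21842338, minus strand (mm9): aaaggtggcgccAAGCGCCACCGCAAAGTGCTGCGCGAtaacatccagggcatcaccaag
The third pair ends at the stop codon of H2A, joins the Hist1 and Hist2 clusters and shares 42 bases.
Hist1h2ah, chr13:22127035-22127094, minus strand (mm9): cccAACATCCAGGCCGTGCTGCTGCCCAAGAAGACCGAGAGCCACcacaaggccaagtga
Hist2h2ac, chr3:96024378-96024437, minus strand (mm9): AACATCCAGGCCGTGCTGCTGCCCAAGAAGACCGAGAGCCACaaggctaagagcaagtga

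Runs of at least 30 bases were shared by 8 member probes of different genes (Hist1h2af, Hist1h2ag, Hist1h2ah, 1 of 2 probes of Hist1h2ak, Hist1h2an, Hist2h2ac, Hist1h3c and Hist1h3f), so a value of any of these is uncertain as to its gene. The Hist2h2aa2 probe shared such a run with a probe of H2afj, outside the clusters, so it is uncertain too. It lies at chr3:96049837-96049896 (mm9), beside the Hist2h2aa1 probe at chr3:96049949-96050008 on the same strand.

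The stem-loop itself, 6 stem bases, a loop of 4 and the matching 6, was found whole in 7 of 55681 probes (0.0126%). Members held 6 of the 7, which is 10.7% of the member probes, and the other lies in Clec2d. The processed message ends a few bases after the stem-loop. In 5 of these probes 3 to 6 bases follow it, while in that of Hist2h2aa1 38 bases do, so most of that probe lies past the processed end. The windows around 3 of them are shown with the stem-loop in capitals.
Hist1h3a, chr13:23853756-23853785, minus strand (mm9): aattaaccaaaGGCTCTTTTCAGAGCCaca
Hist1h3g, chr13:23627749-23627778, plus strand (mm9): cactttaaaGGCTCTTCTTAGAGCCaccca
Hist2h2aa1, chr3:96049949-96049978, plus strand (mm9): taaaaaGGCTCTTTTCAGAGCCacccactg

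Promoters were read for 42 member genes from RefSeq (GRCm38.p6), over the 250 bases before and the 50 after each start, and set beside all 27025 promoters of that table. The letters TATAAA, searched on both strands, stood in 26 of the 42 (61.9%) and in 14.16% of all. The letters CCAAT, which NF-Y binds, stood on either strand in 36 (85.71%) against 37.92% of all. Every H1, H2A, H2B and H3 promoter held CCAAT, and 25% of the 8 H4 promoters did. The octamer ATTTGCAT, to which Oct factors bind, stood in 12 (28.57%) against 1.75% of all, in 7 of 14 H2A, 5 of 9 H2B and none of the H1, H3 or H4 promoters. A match is a string of letters and not a measured binding site. The windows of Hist1h2ae and Hist1h2bg, of Hist1h2aa and Hist1h2ba, and of Hist1h2an and Hist1h2bp overlap. The same match can thus be counted for both genes of such a pair, and the 42 promoters are not all separate sequences. The 250 bases before the start of an H2B and an H4 gene that differed between the female groups show the contrast, with CCAAT (or ATTGG on the other strand), the octamer and TATAAA in capitals.
Hist1h2bm, chr13:21721794-21722043, plus strand (GRCm38.p6): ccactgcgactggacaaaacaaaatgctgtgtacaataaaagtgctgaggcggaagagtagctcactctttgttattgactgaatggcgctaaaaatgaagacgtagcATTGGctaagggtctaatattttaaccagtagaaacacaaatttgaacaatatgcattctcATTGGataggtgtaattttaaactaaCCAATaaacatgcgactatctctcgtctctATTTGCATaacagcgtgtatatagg
Hist1h4k, chr13:21750554-21750803, minus strand (GRCm38.p6): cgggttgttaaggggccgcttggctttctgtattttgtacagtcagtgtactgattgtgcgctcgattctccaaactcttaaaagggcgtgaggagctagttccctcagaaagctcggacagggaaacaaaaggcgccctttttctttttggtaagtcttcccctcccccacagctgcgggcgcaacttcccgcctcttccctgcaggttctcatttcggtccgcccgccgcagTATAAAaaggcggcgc

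Nearly all members gave a clear signal in these eyes. A probe counts as detected on an array when the scanner software called it well above background, and 48 of the 56 probes were detected on every array and 50 on at least 1 array of each group. No member was saturated on any array. A probe was tested when the share of its arrays well above background, averaged over the 4 groups, was at least 0.5, which kept 53 member probes of 47 genes and 29060 probes in all. The 3 probes that were not tested belong to Hist1h1d, to the pseudogene Hist3h2bb-ps and to 1 of 2 probes of Hist4h4, which was detected on 0 arrays. Signals were normalized with the quantile-spline method and are given as normalized signal. A level holds for its own probe and is not set against another's.

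Across all probes, the median intensity was 46.6 to 67.4 on the WT female arrays, 47.0 to 61.6 on the WT male, 34.8 to 39.7 on the Ftx-/Y and 34.2 to 75 on the Ftx-/- arrays, and the share of spots well above background was 54.7% to 65.3%, 51.6% to 54.0%, 49.9% to 55.0% and 48.2% to 70.4%. The Ftx probe A_55_P2175002 gave a signal of 101 ± 44.9 (SD, n = 3) in WT females, 106 ± 4.53 (SD, n = 3) in WT males, 16.5 ± 2.93 (SD, n = 3) in Ftx-/Y males and 21.8 ± 11 (SD, n = 11) in Ftx-/- females. It was well above background on every WT array, on 0 of 3 Ftx-/Y and on 9 of 22 Ftx-/- arrays, and the second Ftx probe, A_55_P2175007, was so on 2 of 3 arrays of WT females, 1 of 22 of Ftx-/- females and 0 of either male group. Whether the probes lie within the deleted stretch was not tested. Slide 1 carried every WT eye together with the first Ftx-/Y eye, slide 2 the remaining Ftx-/Y eyes and Ftx-/- eyes 1 to 3, and slides 3 and 4 the other Ftx-/- eyes. No slide held both WT and Ftx-/- females, so in that comparison slide and genotype cannot be told apart. Over the tested members, the 2 arrays of an Ftx-/- eye differed by a median of 0.072 on the log2 scale and correlated at 0.9947 to 0.9996, while the SD among the 11 Ftx-/- eyes had a median of 0.204.

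In females, clustered histone probes were lower in Ftx-/- than in WT eyes more often than higher. limma, fitted over all 20 eyes with adjustment over all 29060 probes, called 18 members lower (34% of those tested) where 13.9% of all probes were called lower, and 3 members higher (5.66%) where 15.7% of all probes were. Of the 53 members, 41 had a negative log2 fold change, and their median was -0.21 beside 0.004 over all probes. The H3 and H4 genes, which form the inner tetramer of the nucleosome, gave 12 of the 18 calls. In 14 members (26.4%) every Ftx-/- eye lay below every WT female eye, where 8.43% of all probes did. With slide as a fixed block, which links WT and Ftx-/- females only through the Ftx-/Y eyes, 0 members were called either way, where 0.0447% of all probes were called lower and 0.107% higher, so the block left hardly any calls to compare. Without WT female eye 1 there were 13 calls lower (24.5%, where 7.15% of all probes were) and 0 higher (where 8.01% were). With a trend on the GC content of the probes taken out, as described below, 7 members were called lower (13.2%, where 10.3% of all probes were) and 7 higher (13.2%, where 8.37% were). In bulk RNA, fewer cells of a type and less RNA per cell cannot be told apart.

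**Figure D1:**
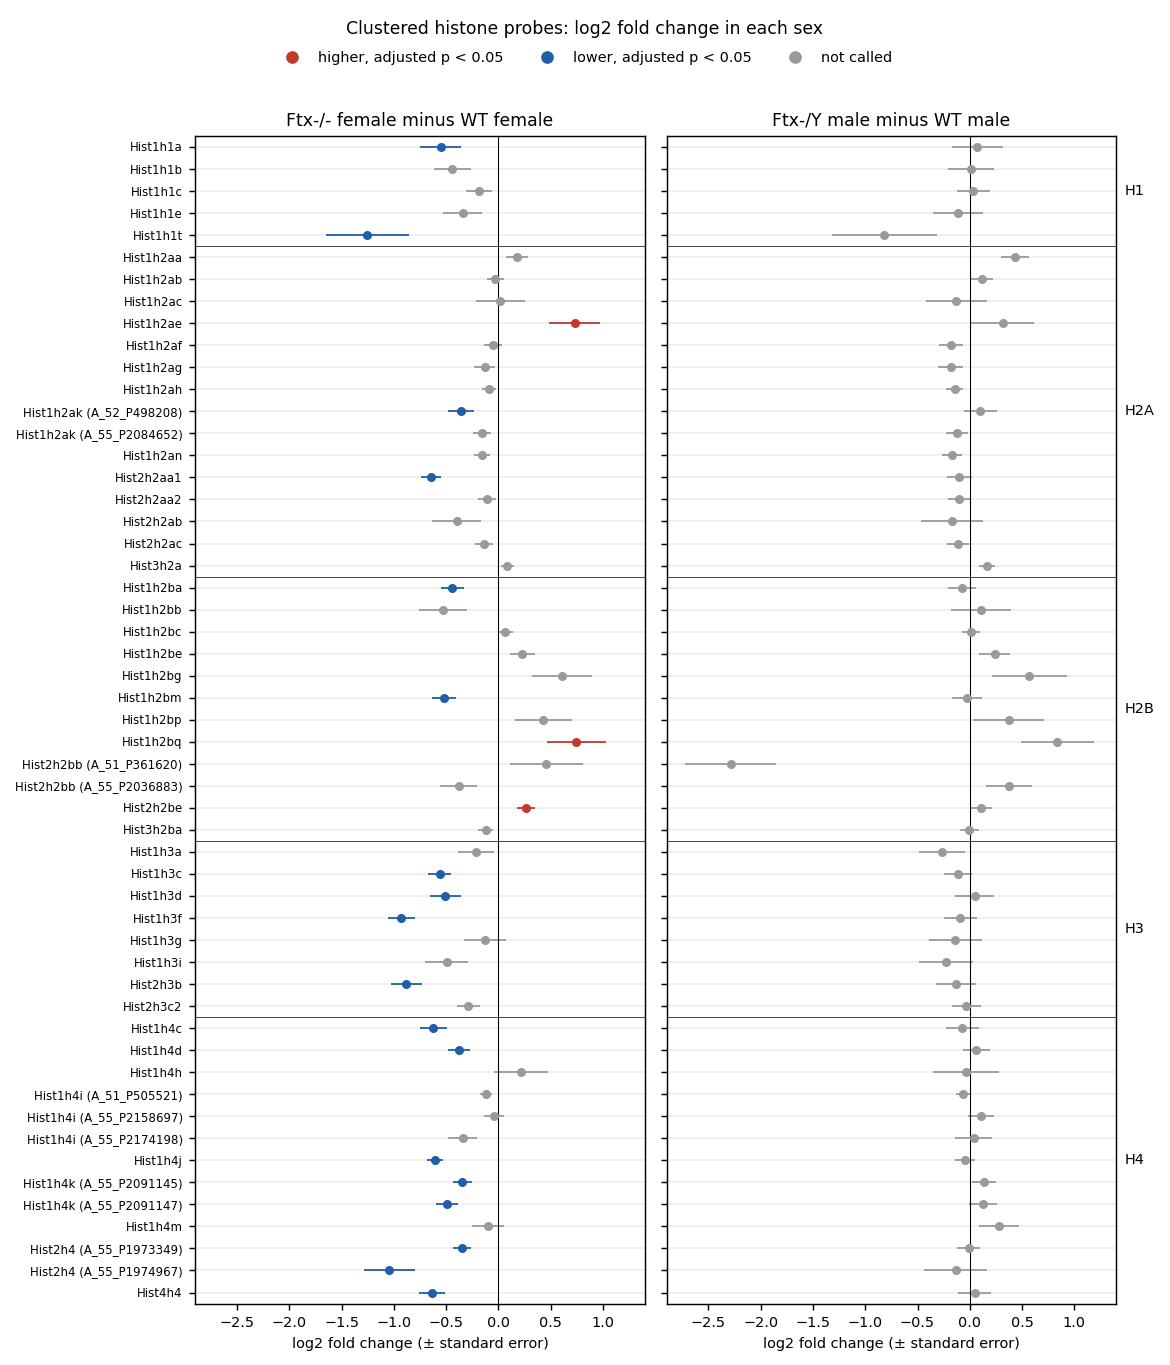
Log2 fold change with its standard error (x axis) of the 53 tested member probes, grouped by histone family, for Ftx-/- minus WT females (left) and Ftx-/Y minus WT males (right), on the same scale. In females 18 probes are called lower (blue) and 3 higher (red), most of the blue ones among H3 and H4, and in males no probe is called.

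The H3 genes all had negative fold changes, and 4 of 8 probes were called lower, with a family median of -0.50. Hist1h3f gave signals of 3180, 2840 and 2220 in WT females, 1560, 2410 and 2090 in WT males, 1970, 1810 and 1820 in Ftx-/Y males, and from 1150 to 1820 (median 1400) in Ftx-/- females. All 11 Ftx-/- eyes were below the WT female eyes, and the WT male and Ftx-/Y eyes lay between or overlapped both. The log2 fold change in females was -0.93 ± 0.128 (SE; limma adjusted p = 9.89e-05). Its partner in the shared run, Hist1h3c, gave 6780, 7520 and 6040 in WT females against 3700 to 5370 (median 4620) in Ftx-/- females, with no overlap and a log2 fold change of -0.56 ± 0.108 (SE; limma adjusted p = 0.000993). Hist2h3b, from the Hist2 cluster, gave 32400, 29600 and 21700 in WT females and 9840 to 19700 (median 15500) in Ftx-/- females, again without overlap (log2 fold change -0.88 ± 0.151, limma adjusted p = 0.000466). Hist1h3d fell by 0.51 on the log2 scale with overlapping groups. With the GC trend taken out, Hist2h3b (-0.30), Hist1h3c (-0.23) and Hist1h3d (-0.18) were no longer called. The other 4, Hist1h3a, Hist1h3g, Hist1h3i and Hist2h3c2, had values of -0.50 to -0.13 that did not pass.

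The H4 genes, which all encode the same protein apart from rare members, gave 8 of 13 probes called lower and a median of -0.35. With the trend on GC content described below taken out, 1 was called lower and 1 higher, the median was -0.06, and Hist1h4d, Hist1h4k A_55_P2091145 and Hist2h4 A_55_P1973349 had positive values. A probe of Hist2h4 (A_55_P1974967) gave 288, 266 and 274 in WT females, 131, 181 and 152 in WT males, 137, 160 and 123 in Ftx-/Y males, and 70.6 to 193 (median 129) in Ftx-/- females. The WT female eyes stood above all the others, and the other 3 groups overlapped. The female fold change was -1.04 ± 0.242 on the log2 scale (SE; limma adjusted p = 0.00374). A second Hist2h4 probe (A_55_P1973349) was lower by a smaller amount, from 164000, 168000 and 164000 in WT females to between 101000 and 144000 (median 134000) in Ftx-/- females, a log2 fold change of -0.35 ± 0.087 (SE; limma adjusted p = 0.00559). Hist1h4j gave 11300, 9880 and 8950 in WT females and 5740 to 7560 (median 6580) in Ftx-/- females. These groups did not overlap, and the log2 fold change of -0.61 ± 0.078 had the lowest adjusted p among the members (limma, 6.49e-05). Hist4h4, the H4 gene that lies apart from the large clusters, gave 64800, 51000 and 51100 in WT females and 27400 to 46300 (median 35400) in Ftx-/- females (log2 fold change -0.64 ± 0.124, limma adjusted p = 0.00108). Hist1h4c fell by 0.62, with 4770 in the lowest WT female eye and 4910 in the highest Ftx-/- eye. Both probes of Hist1h4k fell, by 0.49 and 0.35, and Hist1h4d fell by 0.38 on the log2 scale. The 3 probes of Hist1h4i gave -0.34, -0.12 and -0.04, and none passed.

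Among the linker histones 2 of 5 probes were called lower, and all 5 had negative values, with a median of -0.44. Hist1h1t, the H1 gene known from spermatocytes, had the largest fold change of all members. It gave 188, 132 and 83.0 in WT females, 108, 139 and 51.7 in WT males, 43.8, 140 and 23.2 in Ftx-/Y males, and 30.2 to 77.2 (median 55.4) in Ftx-/- females. Every Ftx-/- eye was below every WT female eye, while the Ftx-/Y eyes reached from below all Ftx-/- eyes to within the WT range. The female log2 fold change was -1.25 ± 0.40 (SE; limma adjusted p = 0.0242). Hist1h1a, another linker histone, gave 5300, 5950 and 4740 in WT females and 2330 to 5170 (median 3860) in Ftx-/- females, which overlapped (log2 fold change -0.55 ± 0.197, limma adjusted p = 0.0411). This call was lost in 16 of 30 alternatives, and with the GC trend taken out the value was -0.22. Hist1h1c, a major somatic H1, gave 1350, 1380 and 2390 in WT females and 1300 to 1700 (median 1420) in Ftx-/- females. The third WT female eye stood apart, the groups overlapped, and the log2 fold change of -0.19 did not pass (limma adjusted p = 0.262). Hist1h1d was detected on 1 of 3 WT female and 2 of 22 Ftx-/- arrays, with signals of 9.38, 131 and 9.12 in WT females and 8.64 to 49.9 in Ftx-/- females, so single eyes carried what signal there was.

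Of 15 H2A probes, 2 were called lower and 1 higher, and the median was -0.11. With the GC trend taken out, 1 was called lower and 5 higher, and the median was 0.18. Hist2h2aa1, whose probe holds the whole stem-loop but lies mostly past it, gave 3980, 3990 and 4290 in WT females, 3740, 3900 and 3020 in WT males, 3110, 3560 and 3220 in Ftx-/Y males and 2250 to 3250 (median 2620) in Ftx-/- females. The Ftx-/- eyes lay below the WT female eyes without overlap (log2 fold change -0.64 ± 0.095, limma adjusted p = 0.000156). Over the 6 probes with the whole stem-loop the female median was -0.30, all 6 values were negative, and 1 was called. One probe of Hist1h2ak (A_52_P498208) fell by 0.36, and the other did not pass. Hist1h2ae, one of several genes for the same H2A protein, was higher instead, with 31.6, 67.0 and 79.7 in WT females and 61.0 to 135 (median 94.3) in Ftx-/- females. Its probe holds only the 3′ part of the stem-loop, with 48 bases after it, so most of the probe lies past the processed end. The groups overlapped, and the log2 fold change was 0.73 ± 0.243 (SE; limma adjusted p = 0.0296). Hist1h2aa, the testis form of H2A, and Hist3h2a gave 0.18 and 0.09 and did not pass. The 6 H2A probes with shared runs gave values of -0.16 to -0.05, and none passed.

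The H2B genes went both ways, with 2 of 12 probes called lower, 2 higher and a median of 0.15. Hist1h2bm gave 22200, 20100 and 23200 in WT females and 11600 to 17800 (median 15300) in Ftx-/- females, without overlap (log2 fold change -0.52 ± 0.116, limma adjusted p = 0.00283). Hist1h2ba, the testis form of H2B, gave 12800, 12700 and 12500 in WT females and 7310 to 10900 (median 9910) in Ftx-/- females, also without overlap (-0.44 ± 0.11, limma adjusted p = 0.00571). With the GC trend taken out both gave -0.19 and lost the call. The probes called higher were Hist1h2bq, at 26.7, 22.0 and 36.1 in WT females and 26.3 to 78.1 (median 49.1) in Ftx-/- females (0.75 ± 0.279, limma adjusted p = 0.0494), and Hist2h2be. The latter, an H2B gene that also makes a polyadenylated message in differentiated cells, gave 588, 771 and 811 in WT females and 747 to 942 (median 877) in Ftx-/- females. Its groups overlapped, and its log2 fold change was 0.26 ± 0.084 (SE; limma adjusted p = 0.0254). The calls higher were often lost under other processing, for Hist1h2bq in 23 of 28 alternatives, for Hist1h2ae in 13 of 29 and for Hist2h2be in 13 of 30. Among the falls, that of Hist1h1t was lost in 12 of 28, and that of Hist1h2ak (A_52_P498208) in 12 of 30 with its sign reversed in 1 more. Hist1h2bc, which likewise can be polyadenylated, gave 7470, 7790 and 8950 against 7220 to 9330 and did not pass (0.07, limma adjusted p = 0.489).

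**Figure D2:**
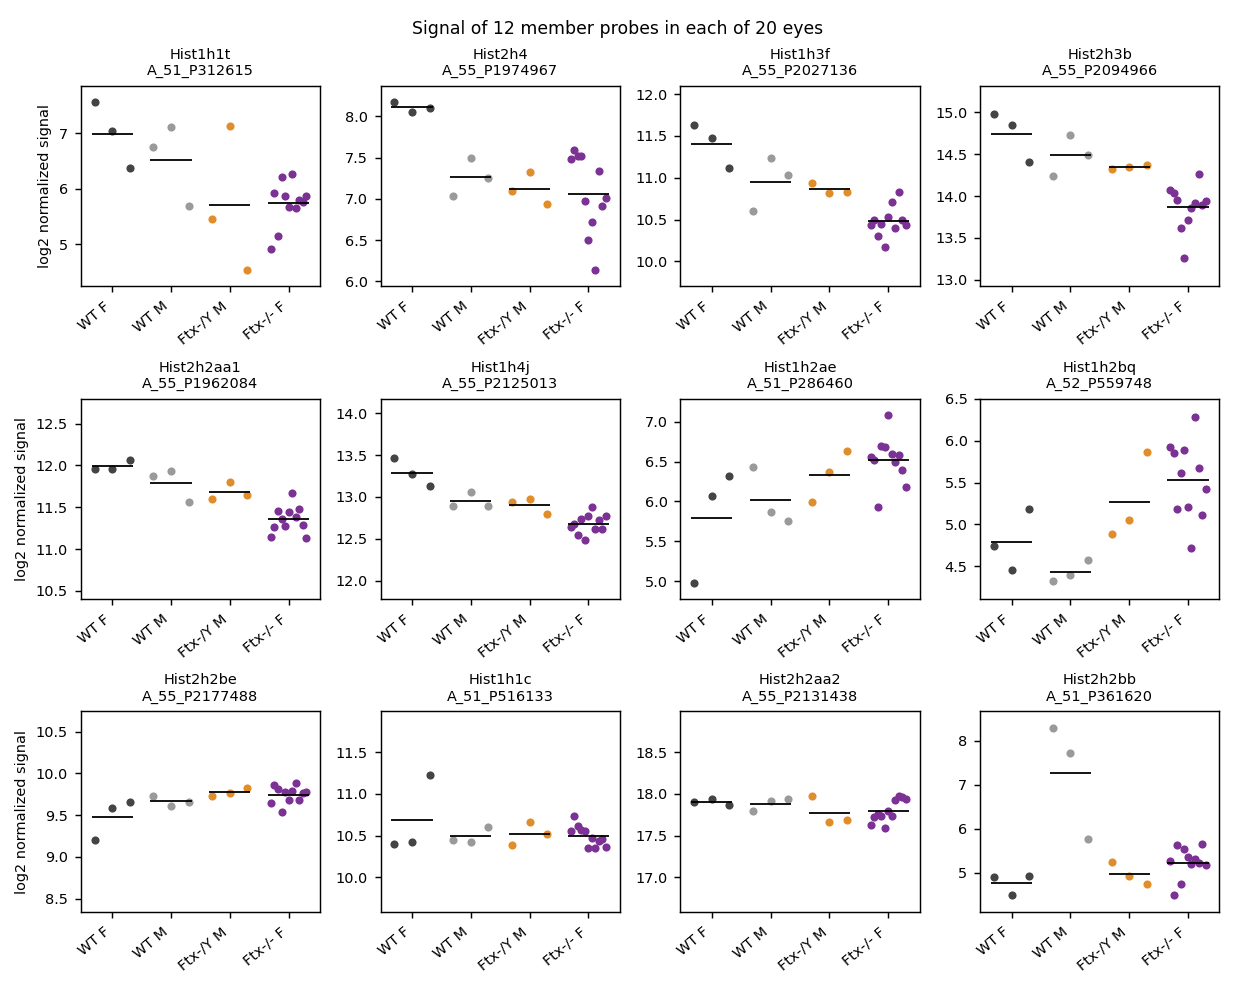
Log2 normalized signal (y axis, a scale for each panel) of 12 member probes in each of the 20 eyes, as points by group with the group mean as a bar. In Hist1h3f, Hist2h3b, Hist2h2aa1 and Hist1h4j all Ftx-/- female points lie below the WT female points, and for Hist2h2bb (A_51_P361620) the WT male points lie above the rest, 2 of them far above and the lowest (54.7) just above the highest Ftx-/- eye (50.2).

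By locus, Hist1 probes were called lower in 13 of 39 cases and higher in 2 (median -0.19), Hist2 probes lower in 4 of 11 and higher in 1 (median -0.35), and neither of the 2 tested Hist3 probes was called. Taking the median over the 53 probes in each eye against the mean of the WT female eyes, Ftx-/- eyes ranged from -0.43 to -0.04 and the WT female eyes from -0.05 to 0.01. The WT males (-0.19, -0.07 and -0.09) and Ftx-/Y males (-0.06, -0.08 and -0.15) all lay below the WT female eyes, and so did the Ftx-/- eyes other than eye 9 (-0.04). The corresponding medians over all probes stayed between -0.03 and 0.05. Over H3 alone the eyes averaged -0.03 in WT females, -0.27 in WT males, -0.40 in Ftx-/Y males and -0.51 in Ftx-/- females (SD 0.14, 0.147, 0.0743 and 0.181). Among Ftx-/- eyes, eye 5 was the farthest down for H1 (-1.13) and H4 (-0.71). The Ftx-/- eyes of slides 2, 3 and 4 each gave a negative median (-0.27, -0.24 and -0.13), with 39, 41 and 36 of 53 members below the WT female mean.

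**Figure D3:**
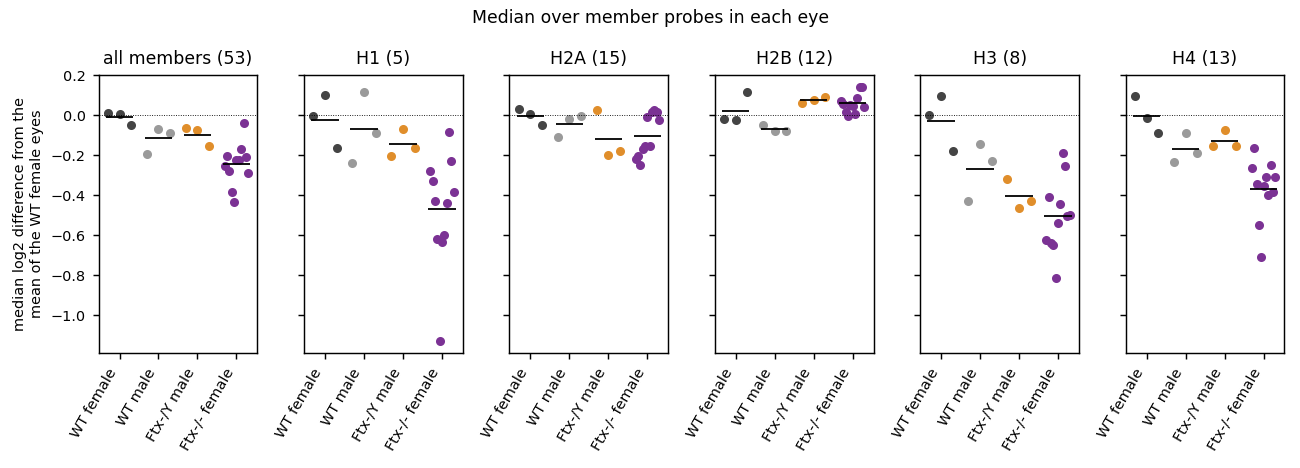
Median log2 difference from the mean of the WT female eyes (y axis) in each eye, over all 53 tested members and over each family, with the group mean as a bar. For H3 and H4 the Ftx-/- eyes lie lowest on average and the WT males and Ftx-/Y males between, while H2B shows no such order.

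The fold change of a probe moved with its base composition. Among the other probes the female median was 0.19 at a GC content of up to 40%, -0.06 at over 40% to 50%, -0.30 at over 50% to 60% and -0.60 above 60%, and the share called lower was 3.54%, 14.4%, 35.7% and 46.1%. The members in these classes had medians of 0.07, -0.21, -0.47 and -0.35, with 0 of 11, 3 of 17, 12 of 20 and 3 of 5 called lower. Member probes had a median GC content of 50% against 43.3% of the other probes, the 18 called lower had 55% and the 3 called higher 35%. After a smooth trend on GC content had been taken out of each eye, which gave the 7 calls lower and 7 higher above, the member median was -0.12 beside -0.02 over all probes. The calls that both ways of processing shared were 5. Of these, Hist1h1t gave -1.19, Hist1h3f -0.87, Hist2h4 (A_55_P1974967) -0.75 and Hist2h2aa1 -0.58, and Hist2h2be gave 0.33. All 8 H3 probes remained negative, with a median of -0.25 and 2 called lower. The H1 median -0.28 with 2 called lower, the H2B median 0.02, and the H2A median turned to 0.18 with 5 called higher. Hist1h1c (-0.46), Hist2h3c2 (-0.38) and Hist3h2ba (-0.39), not called before, were called lower after this step. Hist1h2aa (0.51), Hist1h2af (0.32), Hist1h2ah (0.37), Hist1h2ak A_55_P2084652 (0.31), Hist2h2aa2 (0.33) and Hist1h4i A_55_P2158697 (0.39) were called higher after it. Hist2h2aa1 was thus called lower and Hist2h2aa2 higher after this step, though their probes lie side by side on chromosome 3. Calls against members of high GC content, many H4 genes among them, therefore depend on how GC content is treated.

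**Figure D4:**
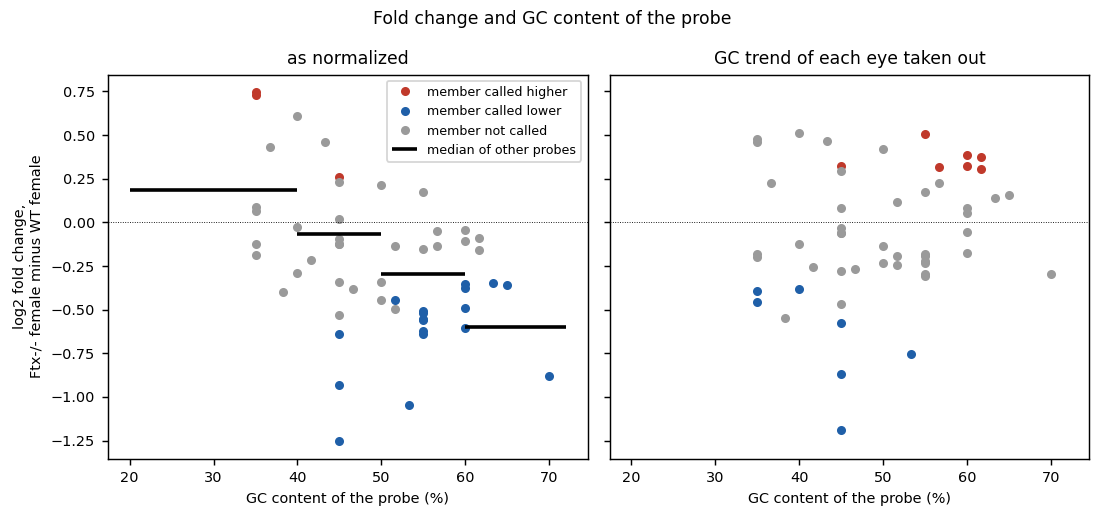
Log2 fold change of Ftx-/- minus WT females (y axis) against the GC content of the probe in percent (x axis) for the 53 members, as normalized (left, with the median of the other probes in 4 GC classes as bars) and with the GC trend of each eye taken out (right). The other probes fall from 0.19 to -0.60 across the classes, and 18 blue points on the left become 7 on the right.

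Cell type markers moved between the same female groups. Of 21 lens probes (15 of 15 genes tested), 16 were called lower in Ftx-/- females, and their summed signal was 2940000 to 3230000 in WT females and 2050000 to 2850000 in Ftx-/- females. Of 7 mesenchyme probes (7 of 8 genes tested), 6 were called higher, with sums of 3480 to 4850 and 5180 to 36900. The 7 pigment probes (6 of 8 genes) summed to 5010 to 7880 and 2910 to 38100, with none called. The 11 retinal progenitor probes were called lower in 1 case and higher in 2, and the 13 retinal neuron probes lower in 4 and higher in 2. Of 8 erythroid probes 3 were called higher, with sums of 320000 to 346000 in WT females and 304000 to 583000 in Ftx-/- females, and of 9 macrophage probes 3 were called higher, with sums of 6490 to 7010 and 6130 to 8550. Of 7 endothelium probes 1 was called lower, a Kdr probe (A_55_P2094469, -1.21) that carried the lower sum (10400 to 11600 against 7350 to 10600), while the list median was 0.20, and neither of 2 muscle probes was called. These marker values are as normalized, with no GC trend taken out. The part of these markers in the histone result was not tested.

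In males, where the same deletion leaves a single mutant X, no member was called. limma called 0 of the 53 members and 0% of all 29060 probes, 4 members (7.55%) and 13% of all probes had an unadjusted p under 0.05, and 29 members had a negative value, with a median of -0.03 beside 0.03 over all probes. Under the fold limits of 1.2 and 0.8 with an unadjusted p under 0.05, 3 members passed (5.66%) where 10.1% of all probes did. Without WT male eye 3, 666 of all probes (2.29%) were called after adjustment, and with them 1 member (1.89%), the Hist2h2bb probe A_51_P361620. The H3 and H4 genes of the female comparison gave small values here. Hist1h3f had -0.09 ± 0.16, Hist1h4j -0.04 ± 0.097 and Hist2h3b -0.13 ± 0.19 (SE). The largest value was that of the same Hist2h2bb probe, which gave 314, 211 and 54.7 in WT males, 30, 22.6 and 30.2 in WT females, 37.8, 30.6 and 27.0 in Ftx-/Y males and 22.3 to 50.2 (median 38.7) in Ftx-/- females. The 3 WT male eyes stood above all the others, 1 of them by little. The probe was detected on 3 of 3 WT male and 0 of 3 Ftx-/Y arrays, so the difference of the group means is a bound. It was at least 4.89-fold higher in WT males, leaving out the spread between eyes, and did not pass (limma adjusted p = 0.105). The probe was tested only because of the WT males, in which it was high. Its bound and its call without WT male eye 3 are therefore given as a description. The other Hist2h2bb probe, A_55_P2036883, starts at position 96074056 of chromosome 3 (mm9), where A_51_P361620 starts at 96082754, and it gave 6540, 9860 and 11600 in WT males and 12000, 11800 and 11500 in Ftx-/Y males. The 2 probes of this gene thus disagree, and only A_55_P2036883 was matched to a RefSeq transcript of Hist2h2bb.

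The other values in males were smaller. Hist1h2aa gave 329, 356 and 406 in WT males and 516, 470 and 483 in Ftx-/Y males, without overlap (log2 fold change 0.43 ± 0.135, limma adjusted p = 0.213). Hist1h2bp gave 47.3, 37.4 and 42.7 against 56.7, 53.9 and 53.5, also without overlap (0.37 ± 0.338, limma adjusted p = 0.672). Hist1h2bq and Hist1h2bg were detected on 0 of 3 WT male and 2 of 3 Ftx-/Y arrays. Their group means were at least 1.47-fold and 1.44-fold higher in Ftx-/Y males, bounds that leave out the spread between eyes. Neither passed (limma adjusted p = 0.325 and 0.519). Hist1h3a gave 446, 506 and 579 against 475, 469 and 337, Hist1h3i -0.23 and Hist1h2ah -0.15 on the log2 scale, and none passed.

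Whether the female and male differences are unequal was tested directly. limma called 0 of 53 members for the difference of the 2 fold changes, with 0% of all probes called, and 18 members (34%) and 12.1% of all probes had an unadjusted p under 0.05. The median over the members was -0.23 beside -0.02 over all probes, and 39 of 53 were negative. A larger fall in females than in males was thus not shown for any single member.

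WT females and WT males were on the same slide. limma called 0 members higher and 1 lower in WT females, where 0.0654% and 0.303% of all probes were called. The member called was the Hist2h2bb probe A_51_P361620 described above (-2.49 ± 0.437 on the log2 scale, limma adjusted p = 0.00553), a call that was lost without WT male eye 1. This probe was detected on all 3 arrays of WT males, 0 of Ftx-/Y males, 2 of 3 of WT females and 16 of 22 of Ftx-/- females. It was tested only because of the WT males, in which it was high, so the call is given as a description. Of the 53 members 42 had higher values in WT females, with a median of 0.14 beside 0.005 over all probes, and these included all 8 H3 probes (median 0.25), all 5 H1 probes and 12 of 13 H4 probes. Values followed GC content here too. The other probes had medians of -0.09, 0.04, 0.18 and 0.31 at up to 40%, over 40 to 50%, over 50 to 60% and over 60% GC, where the members had 0.12, 0.21, 0.11 and 0.14, so above 50% GC the members lay below the other probes. Hist2h4 (A_55_P1974967) gave 0.85 ± 0.304 and Hist1h1t 0.47 ± 0.502, and neither passed (limma adjusted p = 0.292 and 0.775). Hist1h4j gave 7570, 8560 and 7620 in WT males, all below its WT female signals, with a log2 difference of 0.34 ± 0.097 (limma adjusted p = 0.187). The WT female eyes enter this comparison and the female genotype comparison alike, so the 2 are not independent.

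Between Ftx-/- females and Ftx-/Y males, limma called 0 members higher and 1 lower, where 0.323% and 1.15% of all probes were called. That member was a probe of Hist1h4k (A_55_P2091147), with 27800, 31900 and 30900 in Ftx-/Y males and 16700 to 26300 (median 23600) in Ftx-/- females, without overlap (-0.43 ± 0.106, limma adjusted p = 0.0469). It was lost when any 1 of 7 eyes was left out of the fit (WT female eye 1 or 2, WT male eye 2 or 3, or any Ftx-/Y eye). The median over the members was -0.06 beside -0.01 over all probes, 35 of 53 were negative, and 16 (30.2%) and 14.7% of all probes had an unadjusted p under 0.05. All 13 H4 probes were negative, with a median of -0.23. Hist1h1a gave -0.59, Hist2h2bb (A_55_P2036883) -0.50 and Hist1h3a 0.35, and none of these passed. On slide 2, which held 3 Ftx-/- and 2 Ftx-/Y eyes, 37 of 53 members were lower in the Ftx-/- eyes, with a median of -0.07. Ftx-/Y eye 1, on slide 1 with the WT males, had 23 of 53 members below them and a median of 0.02.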

How the data were processed

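For all 62976 spots of an array the authors deposited the background-subtracted intensity and the spot flags of Feature Extraction, whose file headers give version 11.0.1.1. Their series table holds the same intensities, rounded, and entered on the log2 scale as an alternative. Normalization of the 59305 probe spots followed the quantile-spline method named in the methods, rewritten for R 4.3.3 with 100 samples, 5 iterations and a minimum offset of 5, without the spots called non-uniform (120) or apart from their copies (5639). Values on the log2 scale were averaged over the spots of a probe and then over both arrays of an Ftx-/- eye, so that each eye counts once. Groups were compared with limma 3.58.1 (trend on the mean) in a single fit over all 20 eyes, with Benjamini-Hochberg adjustment and an adjusted threshold of 0.05. The fit was tested on simulated eyes with independent noise. These held no slide effect and no GC trend, so the simulation does not bear on either. Precision is limited by the number of eyes.

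The GC trend was a natural spline (4 degrees of freedom). Correlations were tested with 100000 permutations (seed 7), two-sided. Gene names are those of the files; RefSeq (GRCm38.p6), read through transcript accessions, matched 52 of 56 member probes, all under other symbols. Text names the 8 largest called rises and falls in females, the 4 largest each way in males that moved alike in every Ftx-/Y eye, the 2 largest each way between sexes, members and partners of known role, and the 4 of widest spread. Other genes named beside them were chosen after their values were seen. The members and gene lists were chosen with earlier results of these data known. Other normalizations, filters, single arrays, blocks, left-out eyes, slides, call rules and probe choices were tried as alternatives.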

Additional observations from a re-analysis of the deposited data

How the results depend on the processing

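In females all 18 called falls kept a negative value in every alternative in which they were tested, apart from the GC trend taken out (14 of 18). The counts varied more. Members called higher numbered 1 by the 75th percentile, above a signal of 500, without a filter or with only the groups compared (all probes 7.77% to 16.8%). They numbered 0 in the series table, with slide as a fixed or a random block, with scan as a block, by slide 2 or slide 4 alone and by the methods' t-test after Benjamini-Hochberg adjustment (all 0.0998% to 13.8%), and 7 with the GC trend taken out (all 8.37%). Members called lower numbered 5 in the series table (9.43%, all probes 2.12%), 0 with slide or scan as a fixed block (all 0.0447% and 0.0379%), 7 with the GC trend taken out (13.2%, all 10.3%) and 8 by that t-test (15.1%, all 6.74%). Leaving out 1 WT or Ftx-/Y eye (no single Ftx-/- eye was left out) gave 0 to 4 higher (all 8.01% to 16.1%) and 13 to 19 lower (all 7.15% to 14.3%). In males 3 members passed the study's fold and p limits with limma (5.66%, all probes 10.1%) and 2 with the t-test (3.77%, all 5.84%). Leaving out 1 such eye gave 0 to 1 called (all 0% to 2.29%). Between WT sexes 0 were called by the 75th percentile, in the series table, above 500 and with detection on every array. The same held with the groups compared alone, slide 4 alone, 1 probe a gene and the t-test after adjustment. In these settings 0% to 0.368% of all probes were called. With limma 5 passed the study's limits (9.43%, all probes 8.58%), and leaving out 1 such eye gave 0 to 1 called (all 0.317% to 0.874%). Between the Ftx-deficient sexes 0 were called by the 75th percentile, in the series table, without a filter, with detection on every array and with array 2 alone. The same held with the groups compared alone, slide as a fixed or random block, scan as a block and the GC trend taken out. It also held with slide 2 or 4 alone and with 1 probe a gene. In these settings 0.317% to 1.47% of all probes were called. There were 14 with slide 3 alone (26.4%, all probes 25.8%) and 6 by the adjusted t-test (11.3%, all 4.93%). Under the study's limits there were 9 by the t-test (17%, all 11.7%) and 11 by limma (20.8%, all 9.52%). Without 1 such eye there were 0 to 1 (all 0.447% to 1.42%). The difference of the 2 fold changes called 0 members in each alternative run for it (all probes 0% to 0.00344%). These were the 75th percentile, quantile normalization, slide as a fixed or random block, the replicate block and the GC trend taken out. The female median moved to -0.35 by the 75th percentile (all probes -0.08) and to -0.34 above a signal of 500 (all -0.02). It was -0.11 in the series table (all 0.16). The male median moved to -0.14 in the series table (all -0.14) and 0.041 with the GC trend taken out (all 0.006). The GC trend reversed Hist1h4i A_55_P2158697 (0.39), Hist1h2ak A_52_P498208 (0.16), Hist1h4d (0.053), Hist1h4k A_55_P2091145 (0.14) and Hist2h4 A_55_P1973349 (0.08). The causes were not tested.

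Replicate numbers did not pair the eyes (correlations of the deviations of -0.38 to 0.28). With the replicate number as a block 0 members were called higher (all probes 7.84%) and 19 lower (35.8%, all 7.53%) in females, with 15 of the 21 calls shared. Between the WT sexes and between the Ftx-deficient sexes 0 were called (all 0.275% and 0.502%).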

Other observations

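Histone genes that lie outside the clusters and have polyadenylated messages were read in Ftx-/- against WT females. Over 18 probes of 11 genes the median of the log2 fold changes was 0.01, with 5 called higher and 2 lower (limma, adjusted over all probes). Over all probes 15.7% were called higher and 13.9% lower, and the counts of each list here are to be read against these shares. All list values in this section are as normalized, with no GC trend taken out. The female fold change of probes moved with GC content, and its part in these values was not tested. H1f0, the replacement linker histone, rose by 0.45 ± 0.094 (SE; limma adjusted p = 0.00181), and Cenpa, the H3 of centromeres, rose by 0.36. One of 2 probes each of H2afz (A_55_P2099479, 0.27) and H3f3a (A_55_P2065369, 0.26) and 1 of 3 probes of H3f3b (A_55_P1982030, 0.43) rose, while the others of these genes did not pass. H1fx fell by 0.40 and 1 of 2 tested probes of H2afy (A_55_P2058359) fell by 0.36. In males 0 of the 18 were called.

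Genes that make and degrade histone messages were also read. SLBP, which binds the stem-loop, gave 0.07 on both Slbp probes, and neither passed, and Npat, the coactivator of clustered histone genes, was not tested. Among 21 probes for histone transcription and 3′ processing 6 were called higher and 3 lower (median 0.05). Casp8ap2, an NPAT partner needed for histone messages, rose on both probes (0.38 and 0.76), and Zfp473, the zinc finger protein of histone 3′ processing, rose on 1 (A_55_P2035623, 1.13) of 2. Sympk, the scaffold of the cleavage complex, fell by 0.43. Of 8 probes for histone message decay 4 were called higher and 1 lower, and Eri1, the 3′ exonuclease that acts on the stem-loop, rose by 0.49 ± 0.09 (SE; limma adjusted p = 0.000722). Of 19 probes for histone chaperones and carriers 4 were called higher and 3 lower, close to the shares of all probes, with both Hat1 probes higher (0.62 and 0.45) and Daxx lower (-0.45).

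Genes of DNA replication were called higher in 7 of 23 probes and lower in 0, with a median of 0.13, and Pcna rose by 0.28. Genes of mitosis were called higher in 3 of 17 and lower in 1 (median 0.16), the former close to the share of all probes. Across the 11 Ftx-/- eyes, the member median had r = 0.19 (permutation p = 0.585) and rho = 0.27 (permutation p = 0.422) with the replication genes, and r was 0.15 without the 2 farthest eyes. With the genes of mitosis r was 0.26 (permutation p = 0.429), rho 0.33 (permutation p = 0.315), and r without 2 eyes -0.24. With the share of spots well above background r was -0.59 (permutation p = 0.058), rho -0.41 (permutation p = 0.21), and r without 2 eyes -0.50. After adjustment over the 3 relations the permutation p-values of r were 0.585, 0.585 and 0.174, and those of rho 0.422 in all 3. With the slide mean taken out of both measures and permutation within slides, chosen after seeing the data, r was 0.50 for replication (permutation p = 0.166), 0.25 for mitosis (permutation p = 0.522) and -0.45 for spots well above background (permutation p = 0.298), with adjusted permutation p-values of 0.448, 0.522 and 0.448. Wide ranges among Ftx-/- eyes on the log2 scale were those of Hist1h2bp (1.92), Hist1h2bq (1.57) and Hist1h3i (1.47), while Hist1h1d, above background on 2 of 22 Ftx-/- arrays, has no measured range.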
